A study of Mus musculus with 12 samples.

Results

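The expression of 9 genes of Wnt signalling was followed across 3 cell populations sorted from E7.5 mouse embryos. They were chosen as the rows of the gene-level table whose Ensembl IDs stand on a list of Wnt ligands and response genes, and all 9 were present among 22400 rows. The ligands were Wnt2 (ENSMUSG00000010797), Wnt3 (ENSMUSG00000000125), Wnt3a (ENSMUSG00000009900), Wnt5a (ENSMUSG00000021994) and Wnt5b (ENSMUSG00000030170). The others were Ctnnb1 (ENSMUSG00000006932), Lef1 (ENSMUSG00000027985), Axin2 (ENSMUSG00000000142) and Dkk1 (ENSMUSG00000024868). All cells came from Foxf1::venus knock-in embryos on a C57BL/6 background, whose VENUS fluorescence reports the activity of Foxf1, a forkhead factor of the early mesoderm. Cells were gated on VENUS and on FLK1, the VEGF receptor on precursors of blood and endothelium. The groups were cells labelled positive for both (double-positive), FOXF1-positive but FLK1-negative cells (FOXF1-only), and FLK1-positive but FOXF1-negative cells (FLK1-only). Each was measured on 2 arrays, from sort 1 and sort 2, with 50 cells a sample. The labels state neither how many embryos were pooled nor whether the sorts share embryos, so the spread between sorts may be partly technical.

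Wnt proteins are secreted lipid-modified ligands. In the canonical branch they bind Frizzled and LRP receptors and stop the destruction of beta-catenin, encoded by Ctnnb1. Beta-catenin then enters the nucleus and activates transcription with factors of the LEF and TCF family. Axin2 and Dkk1 are among the genes switched on and feed back to restrain the signal. In the mouse gastrula the canonical branch is known for forming the primitive streak and maintaining the posterior mesoderm. Wnt5a and Wnt5b act mainly through routes that do not need beta-catenin and bear on cell movement and polarity.

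Values are log2 signals after robust multi-array averaging (RMA), so 1 unit is a doubling of signal. Medians of the arrays ran from 6.00 to 6.07, and over all rows the median SD between sorts was 0.182 to 0.189 in the 3 populations. No detection calls were used, so a low signal cannot be called absence. In bulk samples, fewer cells with a transcript and less transcript per cell cannot be told apart. No other row was paired with a gene name by the lookup used here, so the sorting genes and the markers of other cell types were not checked. ENSMUSG00000042812 had signals of 4.35 and 4.81 in double-positive cells, 8.51 and 7.91 in FOXF1-only cells, and 4.71 and 4.43 in FLK1-only cells. If that row is Foxf1, which was not settled here, the RNA goes against the FOXF1-positive label of the double-positive cells.

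Dkk1 had its lowest signals in the double-positive cells. Wnt5b, Wnt5a and Lef1 had their highest signals in the FOXF1-only cells. Axin2, the ligands Wnt2, Wnt3 and Wnt3a, and Ctnnb1 had population means within 0.49 log2 units of each other. None of these differences passed the threshold, an adjusted p under 0.05 in limma over all 22400 rows. With 2 arrays a population, arrays that do not overlap between populations are weak evidence of a difference. The share of all rows that separate in this way was not counted. Axin2, for example, was higher on both double-positive than on both FLK1-only arrays, at an unadjusted limma p of 0.419.

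**Figure D1:**
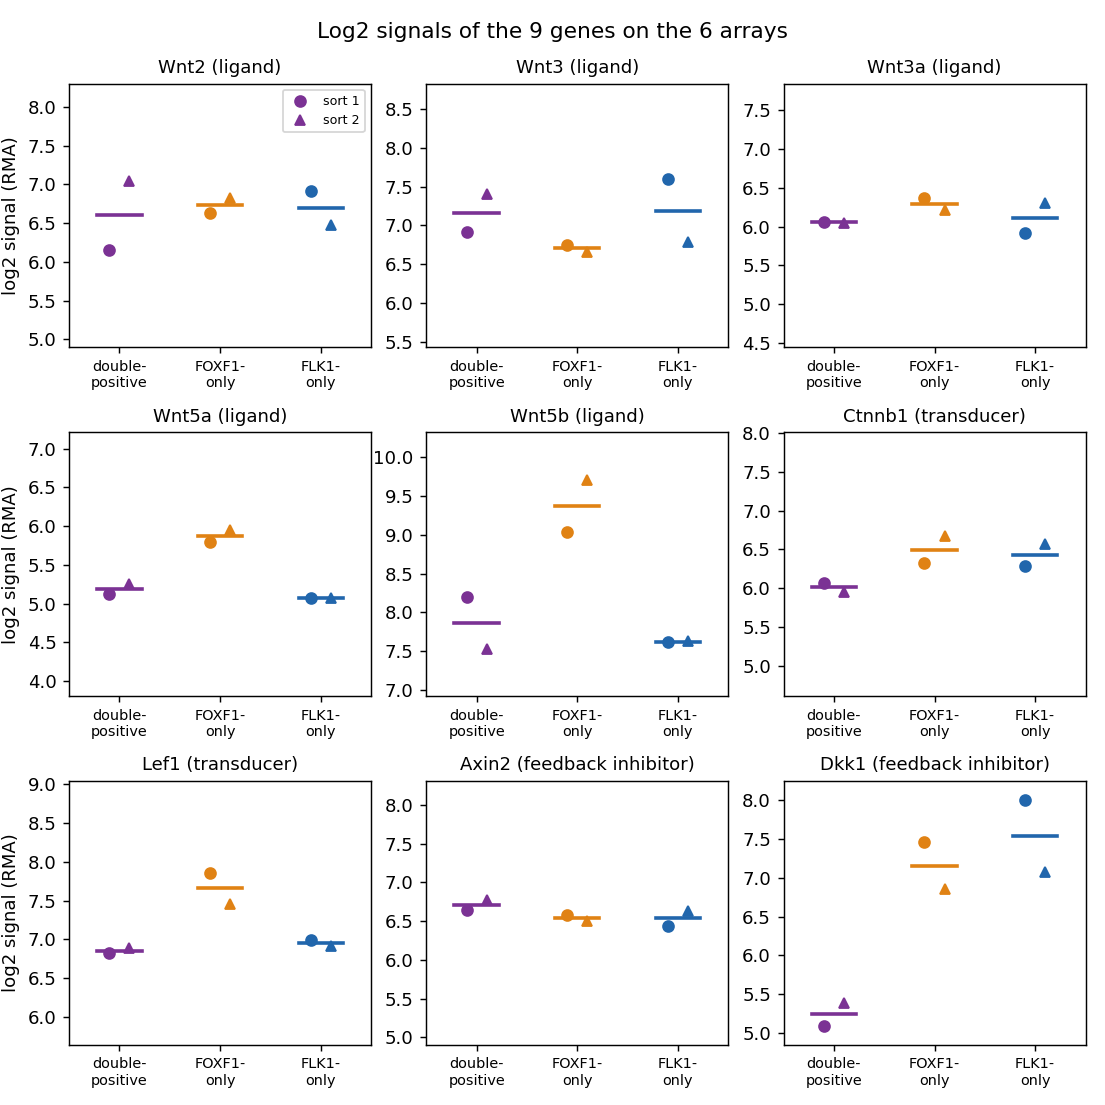
Log2 signal (vertical axis, RMA) of each of the 9 genes on the 6 arrays, by population, with sort 1 as circles, sort 2 as triangles and the mean of the 2 sorts as a bar. Every panel spans the same number of log2 units. Dkk1 is low on both double-positive arrays, at 5.09 and 5.39, and Wnt5b is high on both FOXF1-only arrays, at 9.03 and 9.71.

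Start-site windows of Dkk1, Wnt5b, Lef1 and Axin2 are shown, because the first 3 are among the 4 genes with the largest differences and Axin2 is the textbook target of beta-catenin. Each sequence runs 5′ to 3′ on the gene's strand, from 250 bases before an annotated start to 50 after it, and comes from RefSeq with build GRCm38.p6. Capitals mark 7-letter strings of CTTTG followed by AA, AT, TA or TT, or their reverse complements, which resemble the DNA sequence bound by LEF and TCF factors. Both strands were searched, and none of the matches overlapped another. The table held 14 windows for 8 of the 9 genes, all but Wnt5a. For Wnt5b and Lef1, which have several windows, the only one with a match is shown. It is not the first-listed window of either gene. Those lie at chr6:119544298-119544597 for Wnt5b and chr3:131110047-131110346 for Lef1, and held 0 matches. The windows shown lie downstream of them on the gene's strand.
Dkk1, chr19:30549447-30549746, minus strand: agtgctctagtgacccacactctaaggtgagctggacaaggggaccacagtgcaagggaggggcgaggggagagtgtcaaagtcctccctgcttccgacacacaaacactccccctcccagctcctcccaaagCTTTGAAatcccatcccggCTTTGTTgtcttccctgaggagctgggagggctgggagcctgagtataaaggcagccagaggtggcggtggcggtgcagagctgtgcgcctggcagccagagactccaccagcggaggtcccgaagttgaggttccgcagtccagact
Wnt5b, chr6:119449337-119449636, minus strand: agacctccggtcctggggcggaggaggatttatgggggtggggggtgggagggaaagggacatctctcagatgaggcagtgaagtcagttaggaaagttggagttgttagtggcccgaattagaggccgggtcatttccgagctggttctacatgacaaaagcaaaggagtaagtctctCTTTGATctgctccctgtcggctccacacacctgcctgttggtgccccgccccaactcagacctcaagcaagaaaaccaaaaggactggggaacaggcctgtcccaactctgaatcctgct
Lef1, chr3:131156044-131156343, plus strand: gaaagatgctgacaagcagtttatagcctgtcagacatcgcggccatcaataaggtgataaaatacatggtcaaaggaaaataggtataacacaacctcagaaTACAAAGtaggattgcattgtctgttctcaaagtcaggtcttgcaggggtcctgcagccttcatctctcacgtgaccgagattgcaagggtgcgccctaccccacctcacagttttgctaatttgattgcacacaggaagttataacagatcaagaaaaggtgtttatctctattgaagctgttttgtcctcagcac
Axin2, chr11:108920099-108920398, plus strand: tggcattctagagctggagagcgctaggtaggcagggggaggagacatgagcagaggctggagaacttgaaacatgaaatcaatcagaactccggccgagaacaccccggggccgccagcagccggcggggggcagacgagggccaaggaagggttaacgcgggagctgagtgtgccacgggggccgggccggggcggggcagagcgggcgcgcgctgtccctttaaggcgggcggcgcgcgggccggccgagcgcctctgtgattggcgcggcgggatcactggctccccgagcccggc
The Dkk1 window held 2 matches, which begin 117 and 98 bases before the start. The Wnt5b window, 1 of 3 for that gene, held CTTTGAT at 71 bases before the start. The Lef1 window, 1 of 4, held CTTTGTA on the opposite strand at 147 bases before the start. The Axin2 window held none of these letters. Wnt3 also had a match, so 4 of the 14 windows held one (28.6%), against 5544 of the 32851 windows of all genes (16.9%). These matches describe the letters in the windows and do not show binding.

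By the sort labels, the comparison of double-positive with FLK1-only cells bears on the FOXF1 reporter among FLK1-positive cells. The row that may be Foxf1 was at 4.35 and 4.81 in double-positive cells and at 4.71 and 4.43 in FLK1-only cells. Whether Foxf1 RNA follows the reporter label was not tested. Of the 9 genes 0 passed the adjusted threshold, as did 0% of all rows. At an unadjusted p under 0.05 there was 1 of 9, Dkk1, against 4.67% of all rows. The median difference of the 9 genes was -0.06 log2 units, against 0.00 over all rows.

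By the same labels, the comparison of double-positive with FOXF1-only cells bears on FLK1 among FOXF1-positive cells. The doubt about the label of the double-positive cells holds for it too. Here 0 of the 9 genes passed the adjusted threshold, against 0.286% of all rows. At an unadjusted p under 0.05 there were 4 of 9, against 5.86% of all rows: Dkk1, Wnt5b, Lef1 and Wnt5a, all lower in double-positive cells. The median difference of the 9 genes was -0.49 log2 units, against -0.01 over all rows.

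The comparison of FOXF1-only with FLK1-only cells contrasts the populations that carry 1 marker each. Again 0 of the 9 genes passed, against 0.545% of all rows. At an unadjusted p under 0.05 there were 3 of 9, Wnt5b, Wnt5a and Lef1, all higher in FOXF1-only cells, against 7.28% of all rows. The median difference was 0.07 log2 units, against 0.00 over all rows. The comparisons share arrays pairwise, so the same arrays enter more than 1 of these counts. The genes were also chosen with earlier results of these data known, so the counts and medians are no independent test of the set. In limma's F-test for any difference among the 3 populations, 0 of the 9 genes passed the adjusted threshold, against 0.379% of all rows.

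**Figure D2:**
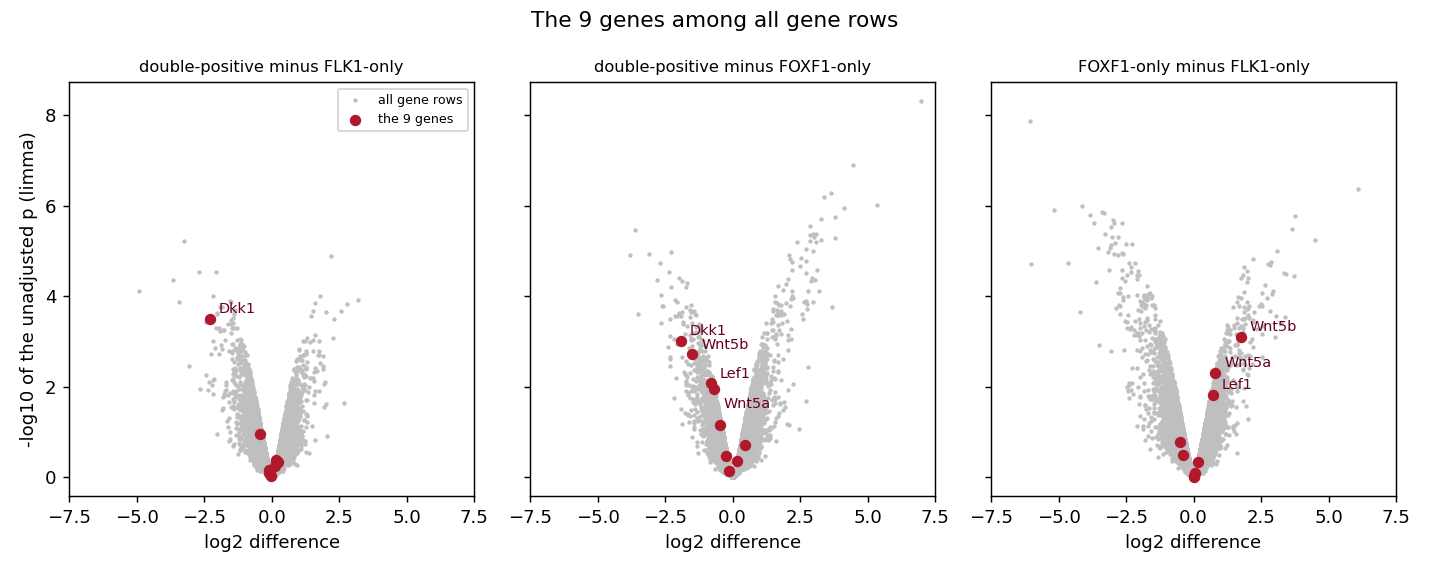
Log2 difference (horizontal axis) against -log10 of the unadjusted limma p (vertical axis) for all gene rows (grey) and the 9 genes (red), with those at an unadjusted p under 0.05 named. Dkk1 lies at -2.29 and -1.91 in the comparisons of the double-positive cells, and Wnt5b at 1.75 in the third.

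Among the ligands, Wnt5b had the largest differences. It encodes a close relative of Wnt5a. Its signals were 8.20 and 7.53 in double-positive cells, 9.03 and 9.71 in FOXF1-only cells, and 7.61 and 7.63 in FLK1-only cells. Both FOXF1-only arrays lay above the 4 FLK1-positive arrays, which overlapped among themselves. The difference of FOXF1-only from FLK1-only cells was 1.75 ± 0.32 log2 units (SE), with a 95% interval of 1.01 to 2.49 and an adjusted p of 0.0904. Rows that passed in this comparison differed by as little as 1.44 log2 units. A row passes on its difference relative to its spread, so size alone does not place Wnt5b near the threshold. Double-positive minus FOXF1-only cells gave -1.50 ± 0.32 (adjusted p = 0.237). Double-positive minus FLK1-only cells gave 0.25 ± 0.32, with an interval of -0.49 to 0.99, and turned to -0.083 without the first double-positive array.

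Wnt5a, a ligand known for elongation of the body axis, also had its highest signals in the FOXF1-only cells, with smaller differences than Wnt5b. Its signals were 5.12 and 5.26 in double-positive cells, 5.80 and 5.95 in FOXF1-only cells, and 5.07 on both FLK1-only arrays. The 3 populations did not overlap, although the FLK1-positive ones were only 0.05 units apart at their nearest arrays. FOXF1-only minus FLK1-only cells gave 0.81 ± 0.20 (SE, adjusted p = 0.263). Double-positive minus FOXF1-only cells gave -0.69 ± 0.20 (adjusted p = 0.543). The row lay below the array median on all 6 arrays, and whether the gene was detected was not tested.

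Wnt3, which the mouse needs to form the primitive streak, differed more between the sorts of each FLK1-positive population than between population means. Its signals were 6.91 and 7.41 in double-positive cells, 6.75 and 6.66 in FOXF1-only cells, and 7.60 and 6.78 in FLK1-only cells. The 2 sorts were 0.50 units apart in double-positive and 0.81 units apart in FLK1-only cells, against 0.49 units between the extreme population means. The FOXF1-only arrays were the lowest of the 6, with a difference of -0.49 ± 0.32 from FLK1-only cells (SE, adjusted p = 0.867). That difference was -0.080 without the first FLK1-only array and -0.894 without the second.

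Wnt3a, which maintains posterior mesoderm and its precursors, varied little. It was at 6.06 and 6.05 in double-positive cells, 6.37 and 6.21 in FOXF1-only cells, and 5.92 and 6.30 in FLK1-only cells. The last population spanned the double-positive arrays, and the 3 intervals for its differences together ran from -0.75 to 0.70 log2 units. Wnt2, a ligand of the early vascular and cardiac mesoderm, had signals of 6.15 and 7.05 in double-positive cells, 6.63 and 6.83 in FOXF1-only cells, and 6.92 and 6.48 in FLK1-only cells. The double-positive sorts alone spanned the other 4 arrays. The gap of 0.90 between those sorts stood against 0.13 between the extreme population means. Its 95% intervals over the 3 comparisons ran from -0.90 to 0.81 log2 units.

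Of the transducers, Lef1 had its highest signals in the FOXF1-only cells, like Wnt5b. It encodes a nuclear partner of beta-catenin and is itself induced by canonical Wnt signals in mesoderm. Its signals were 6.82 and 6.89 in double-positive cells, 7.86 and 7.46 in FOXF1-only cells, and 6.99 and 6.91 in FLK1-only cells. The FOXF1-only arrays were the 2 highest, while the 4 FLK1-positive arrays ran from 6.82 to 6.99. FOXF1-only minus FLK1-only cells gave 0.71 ± 0.22 (SE), with an interval of 0.19 to 1.23 and an adjusted p of 0.440. Double-positive minus FOXF1-only cells gave -0.80 ± 0.22 (adjusted p = 0.484).

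Ctnnb1, which encodes beta-catenin, had its lowest signals in the double-positive cells. They were 6.07 and 5.95, against 6.32 and 6.67 in FOXF1-only cells and 6.29 and 6.57 in FLK1-only cells. The double-positive arrays lay below the other 4, by 0.22 units at the nearest. Double-positive minus FOXF1-only cells gave -0.49 ± 0.23 (SE, adjusted p = 0.921), and double-positive minus FLK1-only cells gave -0.42 ± 0.23 (adjusted p = 0.9999). The RNA signal says nothing about beta-catenin protein, whose level the pathway sets after translation.

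Axin2, a scaffold of the beta-catenin destruction complex and a widely used readout of canonical signalling, had the narrowest range of population means beside Wnt2. Its signals were 6.65 and 6.77 in double-positive cells, 6.58 and 6.50 in FOXF1-only cells, and 6.44 and 6.63 in FLK1-only cells. That range was 0.17 units. FOXF1-only minus FLK1-only cells gave 0.00 ± 0.20 (SE), with an interval of -0.48 to 0.48. In the comparisons of the double-positive cells the intervals reached at most 0.65, so differences of 1 log2 unit lay outside all 3.

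Dkk1, a secreted inhibitor that blocks LRP co-receptors, had the largest difference of the 9 genes. Its signals were 5.09 and 5.39 in double-positive cells, 7.46 and 6.85 in FOXF1-only cells, and 8.0 and 7.07 in FLK1-only cells. Both double-positive arrays lay below their array medians, while the other 4 arrays lay above theirs and overlapped. Double-positive minus FLK1-only cells gave -2.29 ± 0.36 log2 units (SE), with a 95% interval of -3.14 to -1.45 and an adjusted p of 0.254. Its unadjusted p of 0.000313 ranked 27 among the 22400 rows, none of which passed in that comparison. Double-positive minus FOXF1-only cells gave -1.91 ± 0.36, with an interval of -2.75 to -1.07 and an adjusted p of 0.144. Rows called there differed by as little as 1.57 log2 units, which again depends on their spread and not on size alone. FOXF1-only minus FLK1-only cells gave -0.38 ± 0.36 (adjusted p = 0.937). In the F-test over the 3 populations Dkk1 had the smallest p of the 9 genes, with an adjusted p of 0.0901, ahead of Wnt5b at 0.153.

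**Figure D3:**
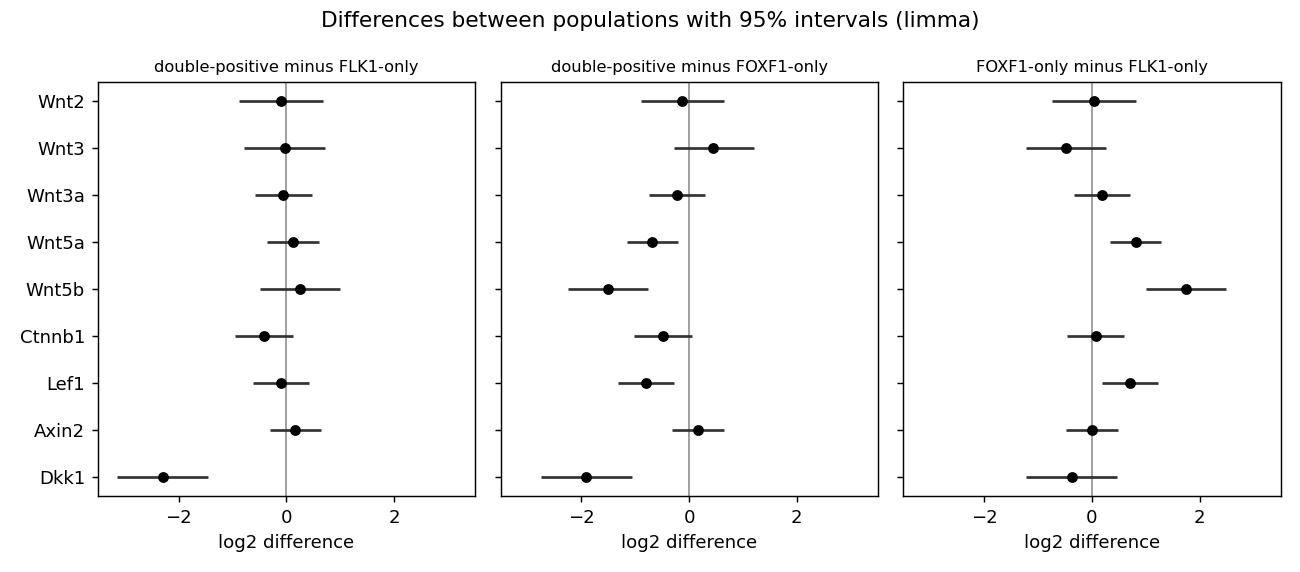
Log2 difference (horizontal axis) of each of the 9 genes in the 3 comparisons, as points with 95% intervals from limma without adjustment for the number of rows. The intervals of Dkk1 lie below 0 in both comparisons of the double-positive cells, and those of Wnt5a, Wnt5b and Lef1 lie on 1 side of 0 in both comparisons of the FOXF1-only cells.

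Among 1076 other rows whose population means spanned at least 1 log2 unit, the pattern most like that of Dkk1 over the 6 arrays was that of ENSMUSG00000097709 (Pearson r = 0.980), followed by ENSMUSG00000043496 (r = 0.960). The most opposed were ENSMUSG00000092323 (r = -0.961) and ENSMUSG00000031710 (r = -0.937). These rows were picked for their likeness on the same 6 arrays and carry no names here.

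The exon-level table of the same arrays bears on how the rows were built. For Dkk1, Wnt5a and Wnt5b the gene-level value equalled that of some exon-level probe set on 6 of 6 arrays, but never the same probe set on all of them. The other 6 genes matched on 0 or 1 arrays. Over all rows, where a match was counted as equality at 5 decimals, matches held for 60.9% of the values. They held for 15.1% when set against the exon-level values of a different array. The sources used here do not say which probe sets belong to which gene. The 5 probe sets that equalled a row on at least 2 arrays are therefore described by number only, and they are not independent of the rows they matched.

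Probe set 4594000 equalled the Dkk1 row on 2 arrays. It had signals of 4.13 and 3.96 in double-positive cells, 6.52 and 5.94 in FOXF1-only cells, and 8.0 and 7.07 in FLK1-only cells. Probe set 4823664 equalled it on 3 arrays, with 5.09 and 5.39 in double-positive cells, 7.91 and 6.85 in FOXF1-only cells, and 8.46 and 6.54 in FLK1-only cells. In both, the double-positive arrays were the 2 lowest. The Wnt5b row was equalled on 2 arrays each by probe sets 4895446 and 5595210. Probe set 4895446 had 8.20 and 8.54 in double-positive cells, 10.28 and 9.93 in FOXF1-only cells, and 8.51 and 7.63 in FLK1-only cells. Probe set 5595210 had 8.35 and 7.46 in double-positive cells, 9.03 and 9.96 in FOXF1-only cells, and 7.61 and 6.93 in FLK1-only cells. Here the FOXF1-only arrays were the 2 highest in each. Probe set 5205839, equal to the Wnt5a row on 3 arrays, did not separate the populations as the row did. It was at 5.94 and 4.84 in double-positive cells, 5.80 and 5.95 in FOXF1-only cells, and 5.07 and 4.26 in FLK1-only cells. Its double-positive arrays spanned the range between the other populations.

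**Figure D4:**
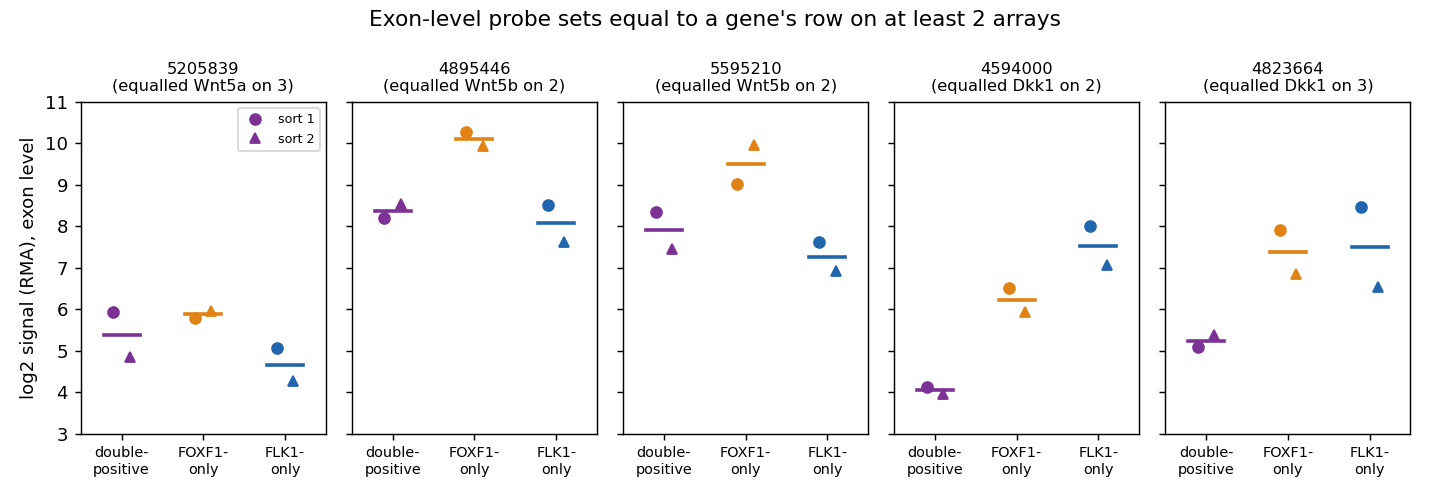
Log2 signal (vertical axis, RMA, exon level) on the 6 arrays for the 5 probe sets that equalled the row of Wnt5a, Wnt5b or Dkk1 on at least 2 arrays, with sort 1 as circles, sort 2 as triangles and means as bars. Both probe sets matched to the Dkk1 row are lowest in double-positive cells. In the one matched to Wnt5a the double-positive arrays overlap both other populations, which do not overlap each other.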

How the data were processed

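RNA of 50 sorted cells per sample was amplified and hybridised to Affymetrix mouse exon arrays, per the labels' protocols. The deposited values of both tables are log2 signals, which the submitters' processing notes credit to Affymetrix Power Tools and RMA, and whose range (3.11 to 14.17) fits that scale. The sources used here give neither versions nor the grouping of probe sets into genes. The 12 deposited samples are 6 arrays at gene and at exon level and were counted as 6.

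The 9 IDs carry the symbols of the list that defines the set. The lookup used matched 0 of 22400 IDs to RefSeq, not even those of the 9 genes. That 0 may reflect how the IDs were looked up. The planned lists of other Wnt genes and of cell type markers were therefore not counted. All rows were fitted with limma 3.58.1 in R 4.3.3 over 6 arrays with population as the only factor, with 3 residual and 4.27 prior degrees of freedom, two-sided, with Benjamini-Hochberg adjustment over 22400 rows per comparison. The median SE was 0.25 log2 units, a precision limited by the number of arrays. Sorts were fitted as unpaired, and the labels do not say whether they share embryos. The threshold set for pairing was a correlation of 0.1 between sort differences. Only the FLK1-positive populations exceeded it, at 0.137, and such correlations cannot decide whether sorts are paired. The code was tested on simulated data. All 9 genes are named whatever their values. The genes and lists were chosen with earlier results of these data known. Exon-level probe sets were picked after seeing the data, counting values within 1e-06 as equal. Figures used matplotlib 3.10.9 in Python 3.11.15.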

Additional observations from a re-analysis of the deposited data

How the results depend on the processing

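The count of the 9 genes past the threshold in limma was 0 in all 3 comparisons under each alternative run: repeated quantile normalization, centring on medians, dropping the dimmer 50% of rows, a robust prior with an intensity trend, fits of 2 populations alone, a replicate block for sort number, and dropping each array in turn. The smallest adjusted p over these was 0.0740, for Wnt5b without the dimmer rows. Wnt5a, a dimmer row, had no value there. Averaging annotated probe sets was not run without a platform table. With the replicate block the counts were 0, 0 and 0, with limma's adjusted p at 0.243 and 0.136 for Dkk1 in double-positive against FLK1-only and FOXF1-only cells, and 0.135 for Wnt5b in FOXF1-only against FLK1-only cells. Over all rows, 0, 64 and 122 passed in the 3 comparisons as ordered above, 0, 41 and 69 with 2 populations alone, and 0, 2 to 24 and 26 to 44 without 1 of the arrays compared. Leaving out an array of the third population gave the counts of the 2 populations alone, since its remaining array adds nothing to the spread. All have fewer residual degrees of freedom. Across rows, sort differences correlated at 0.137 between the FLK1-positive populations, and at 0.0975 and 0.0591 otherwise.

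Only rescaling and leaving out a compared array can move a difference. Of 108 differences without such an array 15 changed sign, as did 1 of 54 on rescaling, and none passed the threshold in either fit. The one on rescaling was Wnt3 in double-positive against FLK1-only cells, at 0.017 after quantile normalization. In that comparison, leaving out 1 array gave -0.545 to 0.353 for Wnt2, -0.439 to 0.374 for Wnt3, -0.242 to 0.132 for Wnt3a and -0.083 to 0.581 for Wnt5b. In double-positive against FOXF1-only cells it gave -0.575 to 0.323 for Wnt2. In FOXF1-only against FLK1-only cells it gave -0.193 to 0.253 for Wnt2, -0.009 to 0.365 for Wnt3a, -0.090 to 0.098 for Axin2, -0.105 to 0.237 for Ctnnb1 and -0.843 to 0.082 for Dkk1. The double-positive differences of Dkk1 kept their sign, at -2.76 to -1.83 and -2.22 to -1.61, as did that of Wnt5b between FOXF1-only and FLK1-only cells, at 1.41 to 2.09. Of 17 that so kept their sign, 8 moved by over 1.5 times: Wnt3 between FOXF1-only and FLK1-only cells, Wnt3, Wnt3a, Axin2 and Ctnnb1 between double-positive and FOXF1-only cells, and Wnt5a, Lef1 and Axin2 between double-positive and FLK1-only cells. A lone array left in a population was assumed to vary like the others.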
